A study of Mus musculus with 2 samples.

Results

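The Hox gene clusters are 4 chromosomal runs of homeobox genes whose chromatin accessibility was measured here in adult mouse hippocampus. The members are the 39 protein-coding genes whose symbol is Hoxa, Hoxb, Hoxc or Hoxd followed by a number, out of 21851 protein-coding genes on the main chromosomes. There are 11 Hoxa genes on chromosome 6, 10 Hoxb genes on chromosome 11, 9 Hoxc genes on chromosome 15 and 9 Hoxd genes on chromosome 2. Peaks were counted once per cluster, from the first to the last base of its genes, and in the 100 kb on each side. The 4 regions held 64 of 144270 peaks in replicate 1 and 57 of 124426 peaks in replicate 2.

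DNase-seq maps the places where the enzyme DNase I can cut chromatin, which are mostly promoters, enhancers and insulators that are not wrapped in nucleosomes. The series holds 1 group of 2 samples from hippocampus of male B6CASTF1/J mice, the first-generation offspring of C57BL/6J and CAST/EiJ parents, aged 8 to 10 months and with no treatment named. Each sample was a pool of 2 biosamples, the labels call the samples biological replicates and give both the same donor identifier, and no hippocampal layer is named although the tissue is labelled as a layer. There was no second condition, so every comparison below is between genes, between regions or between the replicates, and how reads of the CAST/EiJ chromosomes were mapped was not analysed here.

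Hox genes encode transcription factors that give body segments their identity along the head-to-tail axis. Within a cluster the genes lie in the order in which they are used along the body, from group 1 at the front to group 13 at the tail, and genes of the same number in different clusters are called paralogues. Retinoic acid and CDX proteins switch the clusters on in the embryo, trithorax proteins keep them active, and Polycomb proteins keep them silent elsewhere. The forebrain, from which the hippocampus develops, lies in front of the domains where these genes are known to act. CTCF, a DNA-binding protein that anchors chromatin loops together with cohesin, is known to bind inside Hox clusters, and bound CTCF leaves a long protected stretch, a footprint, in DNase data.

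The sequences shown first come from the tallest peaks inside the clusters. Peaks are named by cluster and numbered from the lowest coordinate. In each of the 7 shared cluster peaks whose mean height exceeded 1, the sequence most like the 12-base CTCF core, with up to 3 mismatches, was sought among bases that footprints of both replicates covered, so being footprinted is part of how these were chosen. The 6 peaks in which both replicates' footprints covered all 12 bases are shown. How often peaks elsewhere hold such a footprinted sequence with up to 3 mismatches was not computed. Each line holds 30 bases of mm10, 5′ to 3′ on the strand of the core, which starts at the seventh base, and capitals mark bases inside footprints of both replicates.
Hoxa site 3, chr6:52221797-52221826, minus strand: aaAATTCCAGGAGATGGCAGTGTGGCTcca
Hoxb site 7, chr11:96278942-96278971, plus strand: cAGTGGCCGCTAGATGGCATCCTTGCTCCA
Hoxc site 2, chr15:102987587-102987616, plus strand: aAGTGAACGCGAGGTGGCGCTGTTGCTCAA
Hoxd site 2, chr2:74702389-74702418, plus strand: aTTTGGCCACTAGAGAGCGCTGTTGCTCCA
Hoxa site 5, chr6:52257115-52257144, plus strand: ttgTCAACACGAGGTGGCGCCCTTGATCTA
Hoxd site 3, chr2:74715915-74715944, plus strand: cTTTGTCCAGGAGGAGGCGCTGTAGGACAA

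Compared with the 12-base CTCF core, the sequences at Hoxa site 3, Hoxb site 7 and Hoxd site 2 had 1 mismatch, those at Hoxa site 5 and Hoxd site 3 had 2, and that at Hoxc site 2 had 3, although a match with 2 mismatches lay elsewhere in that peak outside footprints. Hoxc site 2 and Hoxd site 2 shared the run gcgctgttgctc, 12 bases at the same place relative to the core. Hoxa site 5 and Hoxc site 2 were alike at 22 of 30 aligned bases, with a shared run of 11 bases, cgaggtggcgc. The site with the tallest mean height, Hoxb site 7, is shown whole to place the footprint in its peak, with the same use of capitals.
Hoxb site 7, chr11:96278861-96279060, plus strand: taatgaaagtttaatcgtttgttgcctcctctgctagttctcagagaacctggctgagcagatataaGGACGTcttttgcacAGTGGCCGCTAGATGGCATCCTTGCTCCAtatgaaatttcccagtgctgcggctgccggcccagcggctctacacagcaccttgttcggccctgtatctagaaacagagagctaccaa

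Almost all Hox promoters lacked a peak. A promoter was counted as open when a peak overlapped the 1000 bp on either side of a start site of one of its coding transcripts, and 3 of the 39 Hox genes, 7.69%, were open in both replicates, against 62.6% of all protein-coding genes. The 3 were Hoxa10, Hoxb5 and Hoxc5, 1 each in the Hoxa, Hoxb and Hoxc clusters. Hoxd1 was open in replicate 1 alone, and the other 35 had no promoter peak in either replicate. In bulk tissue, few accessible cells and low accessibility in every cell cannot be told apart.

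Hoxc5, which lies between Hoxc6 and Hoxc4, had the tallest of these peaks, with a height of 0.715 in replicate 1 and 0.723 in replicate 2. Heights are the authors' values, on a scale that is not stated. Its peak at chr15:103013621-103013820 reached the start site itself, or came within 15 bp of it in replicate 2. The peak of Hoxa10, a gene used in the uterus, limbs and lower trunk, had heights of 0.558 and 0.568. It lay at chr6:52240479-52240620, in an annotated UTR near the outer of the 2 coding starts of that gene. Hoxb5 had heights of 0.518 and 0.452 at chr11:96303177-96303299, in an intron of the antisense RNA Hoxb5os and 213 bp or more upstream of the Hoxb5 start. The 3 genes differed little between replicates, with SDs of 0.00554, 0.00734 and 0.047 (n = 2 each). All 3 peaks were low beside those of other open promoters, whose median height over all genes was 3.26.

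The promoter peak of Hoxb5 is shown whole, since it is the only shared Hox promoter peak without annotated UTR, with bases in footprints of both replicates in capitals.
Hoxb5 promoter peak, chr11:96303177-96303299, plus strand: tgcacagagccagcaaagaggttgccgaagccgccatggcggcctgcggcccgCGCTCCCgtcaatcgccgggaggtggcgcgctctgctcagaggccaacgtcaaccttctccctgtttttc
Hoxd1, at the front end of the Hoxd cluster, had a promoter peak of height 0.538 at chr2:74762841-74763060 in replicate 1, where the promoter held 262 bases listed at a false discovery rate of 0.05 or less. In replicate 2 the same promoter held 0 listed bases and the nearest peak lay 14929 bp away.

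None of the 35 closed promoters held a base that the authors' false discovery rate file lists, at 0.05 or less, in either replicate. The longer peak list has the same limit, so this is no separate measurement, and 0 of 35 was near the background of 3.40% of all 7434 genes without a promoter peak. A signal below that limit was not detectable at this depth. With a window of 500 bp the same 3 genes were open in both replicates. With a window of 2000 bp Hoxa3 joined them, which has a shared peak 1255 bp or more from its start, to make 4 genes. With 5000 bp 19 Hox genes, 48.7%, were open against 70.8% of all genes. On the shorter, stricter peak list 1 gene, Hoxc5, was open in both replicates, and 1 gene was when peaks had to reach the median height of their own replicate. The share of all genes open under either of these limits was not computed, so the fall from 3 genes has no background beside it.

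The absence of promoter peaks was measured beside CpG content, because promoters rich in the dinucleotide CpG are open in most tissues. CpG content was taken as the observed over expected ratio in the 500 bp on either side of the start, and genes were split into 10 deciles of equal size. The Hox genes spanned ratios of 0.34 to 1, with a median of 0.721 against 0.606 for all genes. Of all genes in the 2 highest deciles, 96.6% were open in both replicates, but of the 11 Hox genes there 1 was, Hoxb5. In the highest decile, 43 of 2185 genes had no promoter peak in either replicate, and 6 of these 43 were Hox genes. They were Hoxa4, Hoxa5, Hoxa13, Hoxd8, Hoxd11 and Hoxd13, and they were all the Hox genes of that decile. At the other end, the 5 Hox genes of decile 4, which are Hoxb1, Hoxb2, Hoxb3, Hoxb13 and Hoxc4, had no peak either, and 46.8% of all genes of that decile were open in both replicates.

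**Figure D1:**
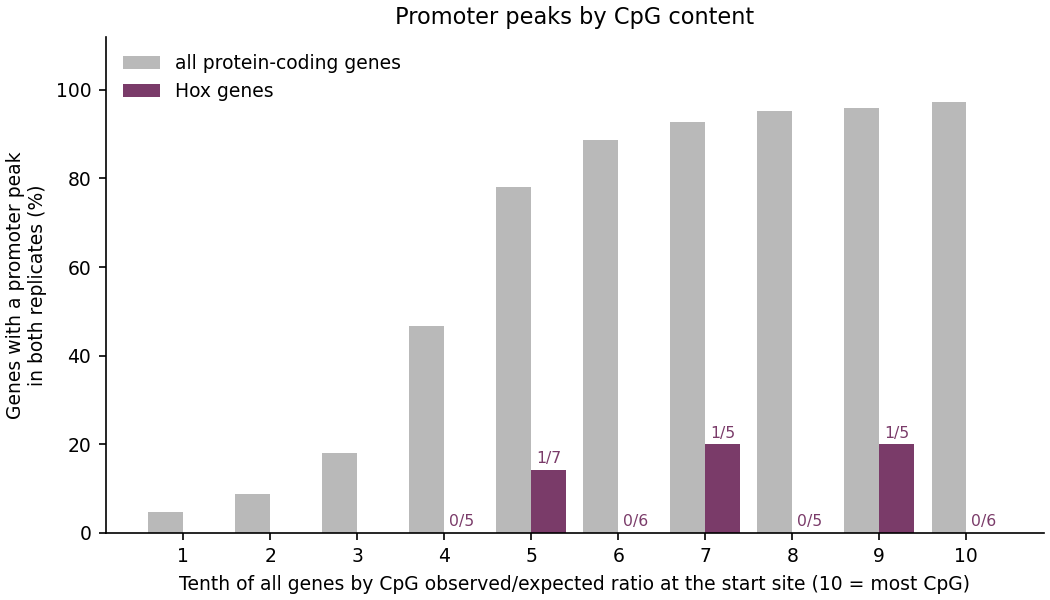
Percent of genes whose promoter was open in both replicates (vertical axis) in each decile of CpG observed/expected ratio (horizontal axis), for all protein-coding genes (grey) and Hox genes (purple, with open genes over all Hox genes of the decile). Grey bars climb to 97.2% in the highest decile, where 0 of 6 Hox genes had a peak.

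Hoxa5, which patterns the neck, lung and chest, shows what such a closed promoter looks like, with a CpG ratio of 0.996. The 250 bases before its start in the RefSeq promoter table (GRCm38.p6) follow on the gene's strand, with its 28 CG dinucleotides in capitals.
Hoxa5, chr6:52204588-52204837, minus strand: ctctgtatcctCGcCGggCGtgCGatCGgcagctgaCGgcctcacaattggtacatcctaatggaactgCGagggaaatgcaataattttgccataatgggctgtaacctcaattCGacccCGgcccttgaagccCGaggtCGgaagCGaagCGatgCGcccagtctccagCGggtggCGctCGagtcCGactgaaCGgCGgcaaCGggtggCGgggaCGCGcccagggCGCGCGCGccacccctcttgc
The nearest peak lay 7071 bp from the Hoxa5 start in replicate 1 and 7058 bp in replicate 2. That table held promoters for 22 of the 39 Hox genes.

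Other developmental homeobox genes were open more often. Of 59 such genes, picked by symbol from families such as Dlx, Emx, Otx, Lhx, Irx, Msx, Gbx, Pitx and Barhl, 27 were open in both replicates, 3 in replicate 1 alone and 3 in replicate 2 alone. Their CpG ratios had a median of 0.723, close to that of the Hox genes, and the median height of those open in both was 0.833. Hence the share open was 45.8% for these genes and 7.69% for Hox genes, a difference given without a test since the genes of a cluster are neighbours and not independent.

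Inside the 4 clusters there were 25 peaks in replicate 1 and 24 in replicate 2, or 5.08 and 4.88 per 100 kb (4.98 ± 0.144, SD, n = 2). All autosomes together had 5.7 and 4.91 peaks per 100 kb. The 8 flanks had 4.88 and 4.12 (4.5 ± 0.53, SD, n = 2), so the means of clusters and flanks of 100 kb differed by less than the SD of the flanks. The direction depended on flank size, since flanks of 50 kb had a mean of 3.5 and flanks of 200 kb one of 6.69. With peaks that reached the median height, the mean density of the clusters was 82.8% of that of the autosomes, against 93.9% with all peaks.

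The clusters are far richer in CpG than most DNA, and CpG-rich DNA held more peaks than they did. The clusters held 2091 to 2986 CpG dinucleotides per 100 kb, while the median of autosomal windows of 100 kb in the top 10% for CpG number was 1489. Those windows had a median of 12 peaks in replicate 1 and 10 in replicate 2, with middle ranges of 9 to 15 and 8 to 14. The densest cluster, Hoxb, had 6.32 and 6.9 peaks per 100 kb, and Hoxc had the fewest, 3.46 in both replicates. Hoxa had 4.75 in both. In Hoxd the replicates were farthest apart, with 5 peaks against 3, or 5.16 against 3.1 per 100 kb.

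**Figure D2:**
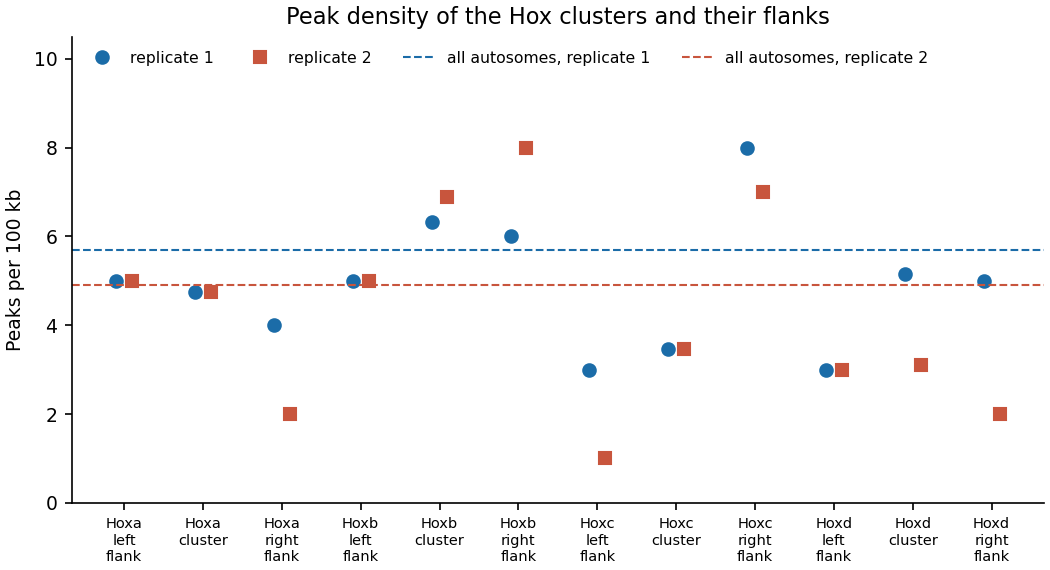
Peaks per 100 kb (vertical axis) in each Hox cluster and in the 100 kb to its left (lower coordinates) and right, for replicate 1 (blue circles) and replicate 2 (red squares). Dashed lines give the density over all autosomes, 5.7 and 4.91. The Hoxc left flank was lowest, with 3 peaks and 1 peak, and the Hoxb and Hoxc right flanks reached 8.

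The longest stretch of each cluster without a peak in either replicate was picked out. Counted from the edge of the cluster, Hoxc began with 49758 bp without a peak, which takes in the whole of Hoxc13, Hoxc12 and Hoxc11, genes of the tail end. Hoxa was empty over 41825 bp at its front end, which takes in the whole of Hoxa2 and Hoxa4, genes of the hindbrain and neck. A stretch of 41369 bp in Hoxb held Hoxb4 and Hoxb3, and Hoxd had a gap of 33935 bp. Being the longest of each cluster, these stretches were not compared with single gaps between autosomal peaks. By the false discovery rate files, 1.27% and 1.23% of cluster bases were listed (1.25% ± 0.0272, SD, n = 2), and 1.87% and 1.57% of autosomal bases.

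By coding starts of the basic annotation, the tallest peak of each cluster, by mean height, lay at the same place in gene order. It stood between the group 9 gene and the next gene towards the front. In Hoxd this holds for the mean and replicate 2, while in replicate 1 site 3 was taller (1.94 against 1.58). Hoxd site 3 lies within the overlapping gene models of Hoxd3 and Hoxd4. It is downstream of the most upstream Hoxd3 start and upstream of the Hoxd4 starts. The tallest peaks by mean height are Hoxa site 3, Hoxb site 7, Hoxc site 2 and Hoxd site 2 of the sequences above. The next of these starts downstream belonged to Hoxa7, Hoxb8, Hoxc8 and Hoxd8, at 3090, 2944, 3006 and 2214 bp from the middle of the peak. The 5′ end of the Hoxa7 gene model, however, lay inside Hoxa site 3. The footprinted core-like sequence lay on the strand of the Hox genes in Hoxa site 3, Hoxb site 7 and Hoxd site 2. In Hoxc site 2 the footprinted sequence with 3 mismatches lay on that strand too, but the match with 2 mismatches outside footprints lay on the opposite one. Which protein occupied the sites was not measured.

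**Figure D3:**
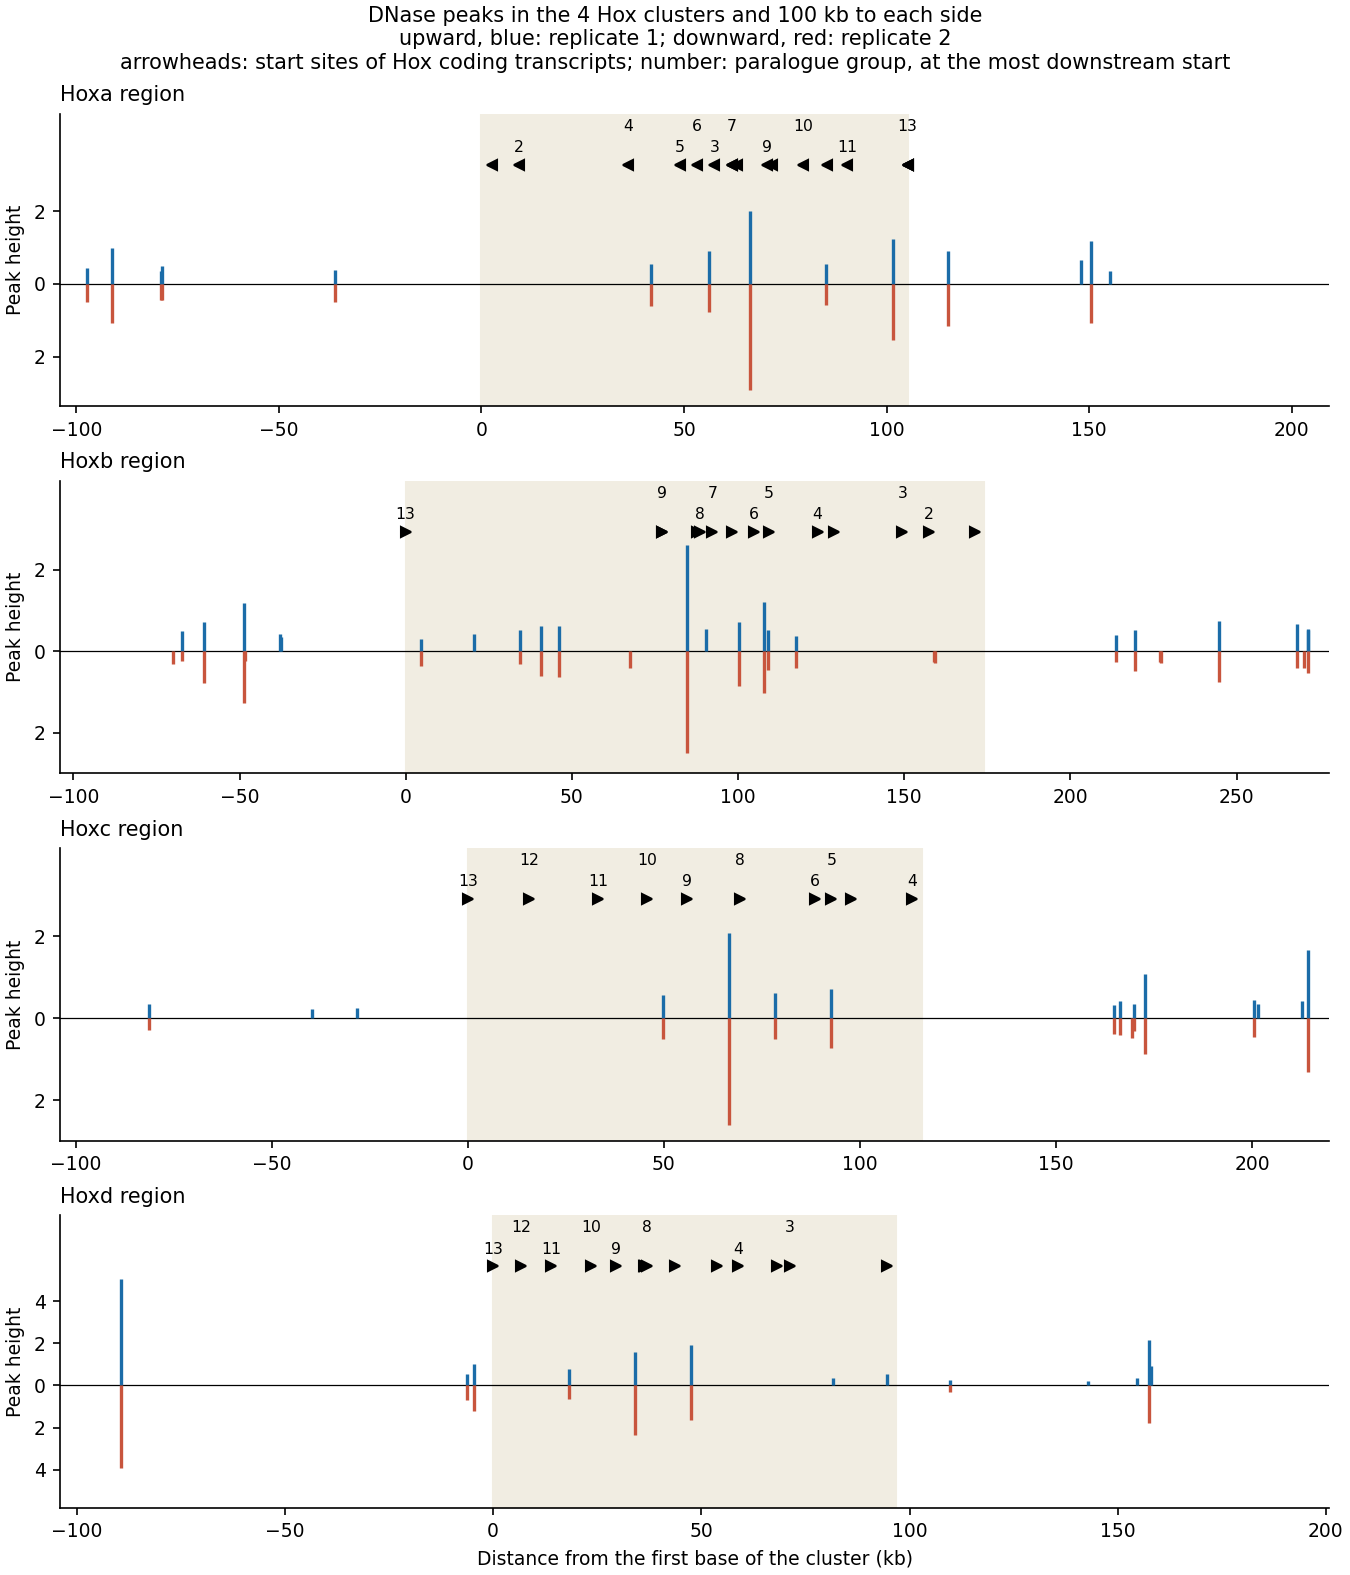
Peaks in each Hox region as vertical lines at their distance from the first base of the cluster (horizontal axis, kb), with height (vertical axis, own scale per panel) drawn upward for replicate 1 in blue and downward for replicate 2 in red. The shaded span is the cluster, arrowheads are start sites of coding transcripts in the direction of transcription, and numbers, where given, are paralogue groups. The tallest line inside each shaded span by mean height stands between groups 9 and 8, or 9 and 7 in Hoxa.

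Hoxa site 3, at chr6:52221681-52221920, had a height of 2.01 in replicate 1 and 2.93 in replicate 2. It was intergenic in the basic annotation, and in the full GENCODE M21 set it overlapped an untranslated exon of a longer Hoxa7 transcript. With the start sites of that full set, chosen after the data were seen, Hoxa7 became the fourth Hox gene open in both replicates. Its longest footprint measured 25 bp in replicate 1 and 50 bp in replicate 2. The peak stood above 87.1% of peaks in replicate 1 and 92.4% in replicate 2.

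Hoxb site 7 lay between Hoxb9 and Hoxb8 at chr11:96278861-96279060, with heights of 2.61 and 2.49, above 91% and 90.5% of peaks. Its longest footprint spanned 36 and 29 bp. Hoxc site 2, between Hoxc9 and Hoxc8 at chr15:102987501-102987700, had heights of 2.09 and 2.6 and footprints of up to 29 and 32 bp. Hoxd site 2, between Hoxd9 and Hoxd8 at chr2:74702301-74702500, had heights of 1.58 and 2.33 and footprints of up to 32 and 45 bp. Of all single footprints, 8.77% in replicate 1 and 9.67% in replicate 2 reached 25 bp, and their medians were 9 and 10 bp. The lengths above are the longest of each tall peak, and the longest footprints of other tall peaks were not compared.

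Of the other shared peaks, the next tallest of each cluster follow. In Hoxa, site 5 at chr6:52257041-52257240, on the noncoding transcript 9530018H14Rik downstream of Hoxa13, had heights of 1.24 and 1.55. Its core-like sequence pointed against the direction of the Hoxa genes. Site 2, in an intron of Hoxa3 at chr6:52211661-52211860, had heights of 0.893 and 0.768. In Hoxb, site 10 at chr11:96301881-96302160 stood 1491 bp upstream of Hoxb5, with heights of 1.2 and 1.04. Site 9, in an intron of Hoxb6 at chr11:96294601-96294820, had heights of 0.709 and 0.852. All 4 stood above the median peak of their own replicate, at 0.643 for the first and 0.639 for the second.

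In Hoxc the peak of the Hoxc5 promoter came next after site 2, followed by site 3 at chr15:102999261-102999440, with heights of 0.623 and 0.517. In Hoxd, site 3 at chr2:74715841-74716040 had heights of 1.94 and 1.63, so that site 3 was the taller of the pair in replicate 1 and site 2 in replicate 2. It covered the start of Hoxd3os1, an antisense RNA. Site 1, in an intron of Gm28309 at chr2:74686401-74686600, had heights of 0.774 and 0.646. None of the 4 clusters held a peak as tall as the median open promoter.

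CTCF-like sequence was counted in every peak, in the 200 bp around its middle and on both strands. With up to 1 mismatch the core was found in 4 of 25 cluster peaks in replicate 1 and 4 of 24 in replicate 2, against 13.0% and 14.4% of all peaks, so the share in the clusters was near the background. In those peaks the match overlapped a footprint in 4 of 4 cases in each replicate, and in 78.1% and 80.8% of matching peaks genome-wide. The exact core occurred once in the DNA of the 4 clusters, in Hoxb, and did not lie in peaks of both replicates, whereas 43.2% of 12245 exact autosomal matches lay in peaks of both. With up to 2 mismatches 18 of 25 and 18 of 24 cluster peaks held a match, against 34.3% and 36% of all peaks. Cluster peaks were richer in GC, at a median of 57.8% and 56.9% against 51.4% and 51.9%, and the part of base composition in that count was not tested.

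Across the whole regions footprints were about as frequent as elsewhere. Peaks of the Hox regions held 10.7 and 12.9 footprints per kb (11.8 ± 1.56, SD, n = 2), and autosomal peaks 10.2 and 11.2. Inside the clusters the figures were 13.8 and 13.7.

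Most Hox region peaks were found in both replicates. In each replicate 48 peaks overlapped a peak of the other, which is 75% of those in replicate 1 and 84.2% of those in replicate 2 (mean 79.6% ± 6.51, SD), against 72.3% and 84.2% over all autosomes. Counting only peaks that reached the median height, the mean share was 91.8%, and the autosomal share at that limit was not computed. All peaks inside Hoxa and Hoxc were shared, 5 and 4 of them.

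Heights of the 48 pairs were compared on the whole steps in which heights are written, with an exact two-sided binomial test and Benjamini-Hochberg adjustment over all 101909 pairs of the genome. All pairs together were lower in replicate 2, by a median log2 ratio of -0.189, and ratios below are relative to that. On this scale 33 Hox region pairs were higher in replicate 2 and 15 lower, with a median of 0.193, and without the scaling the median was 0.00376. Of the 48, 9 passed at an adjusted p of 0.05, or 18.8%, and 20.1% of all pairs did, so the number of differing pairs was near the background. Of the 9, 8 were higher in replicate 2, and of the 20446 pairs called genome-wide 11427 were. Over all pairs, called or not, 11.2% were called in that direction. The test covers counting error only, since each replicate is 1 library. It takes each step as 1 independent count, which was not checked because the scale of the heights is not stated.

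Hoxa site 3 differed most clearly, by 0.73 on the log2 scale, with an adjusted p of 5.344e-11 in the exact binomial test. Hoxd site 2 was higher by 0.75 (adjusted p 2.878e-09, same exact test) and Hoxc site 2 by 0.50 (adjusted p 1.390e-05). Hoxb site 7, their counterpart, was not called, at 0.12. Hoxa site 5 was higher by 0.51 (adjusted p 0.00127) and Hoxb site 9 by 0.46, the latter with an adjusted p of 0.0479 that became 0.072 when the expected share was taken from the median ratio.

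In the flanks, 3 called pairs were higher in replicate 2. Right of Hoxa, site 1 at chr6:52270601-52270800 had heights of 0.906 and 1.17, a log2 ratio of 0.56. Left of Hoxd, between Evx2 and Hoxd13, site 3 at chr2:74663661-74663860 had heights of 1 and 1.23, a ratio of 0.48, and site 2 at chr2:74661938-74662067 had 0.525 and 0.678, a ratio of 0.56. The pair that was lower in replicate 2, at chr11:96127081-96127240 left of Hoxb, had heights of 0.492 and 0.232, a ratio of -0.89.

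**Figure D4:**
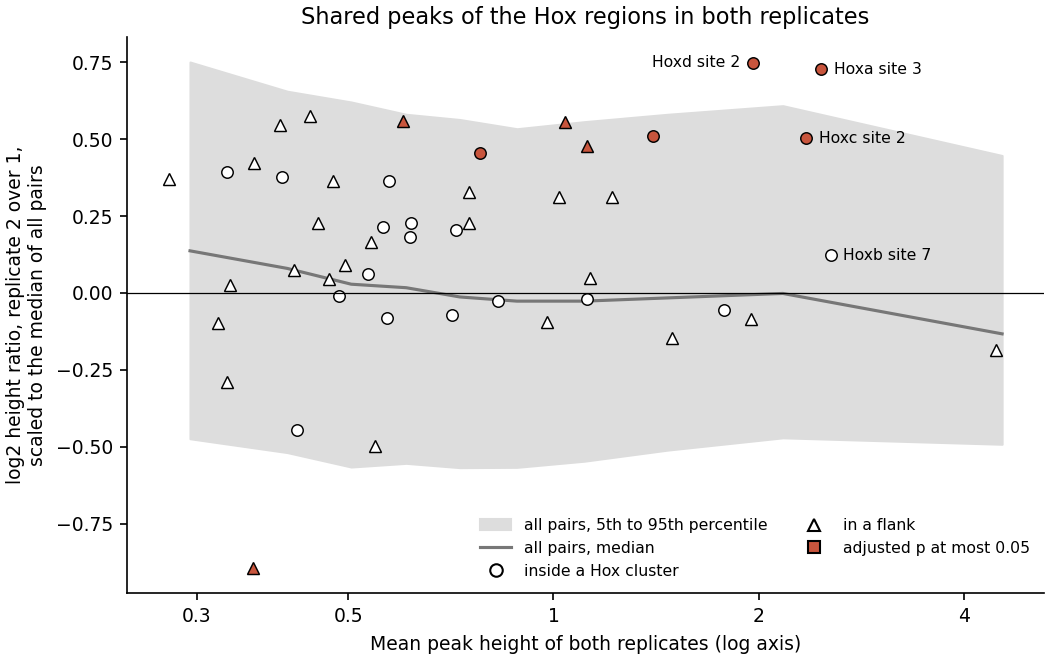
Scaled log2 height ratio of replicate 2 over replicate 1 (vertical axis) against mean height (horizontal log axis) for the 48 shared peaks of the Hox regions, inside a cluster (circles) or in a flank (triangles). Red marks the 9 pairs past the exact binomial test. The grey band holds the middle 90% of all pairs in each of 10 height classes. Hoxa site 3 and Hoxd site 2 lie above the band, and the pair with heights of 0.492 and 0.232 left of Hoxb lies below it.

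CTCF-like sequence moved with the replicate difference across the whole genome. The 5377 pairs with an exact core had a median scaled ratio of 0.278, and 44.2% of them were called. The 16447 pairs with up to 1 mismatch had a median of 0.217, and the 63254 pairs with no match at up to 2 mismatches had -0.0445. In the Hox regions the 24 pairs with a match at up to 2 mismatches had a median of 0.228 with 7 called, and the other 24 had 0.0681 with 2 called. Promoter pairs of all genes had a median of -0.0925. The part of CTCF-like sequence in the Hox difference was not tested.

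Marker promoters of cell types were counted in the same lists, beside 62.6% open over all genes and 4.62% to 97.2% from the lowest to the highest CpG decile. The marker lists differ in CpG content, and its part in these counts was not tested. All 8 markers of excitatory hippocampal neurons, all 6 of oligodendrocytes and all 6 of astrocytes were open in both replicates, and 3 of 6 of inhibitory neurons, 3 of 6 of mural cells and fibroblasts, 2 of 6 of choroid plexus and ependyma, 1 of 6 of microglia, 1 of 6 of endothelial cells and 1 of 6 of blood cells were. Of 6 hindbrain and spinal cord markers, a source in which Hox genes are active, 2 were open in both replicates, 1 in replicate 2 alone and 3 in neither. Pax2 had heights of 0.341 and 0.336, Atoh1 had 0.316 in replicate 2, and Lmx1a and Lbx1 were among those with no peak. The summed height of that list was 4.09 in replicate 1 and 4.93 in replicate 2. Its part in the Hox values was not tested.

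Genes next to the clusters differed from each other. In the left flank of Hoxd, Lnpk, which encodes a protein of endoplasmic reticulum junctions, had promoter heights of 5.04 and 3.89, the tallest peak of all 4 regions. In the right flank Mtx2, which encodes a mitochondrial import protein, had 2.14 and 1.77. Between them, Evx2, an even-skipped homeobox gene 8753 bp from the cluster, was closed, although its CpG ratio was 0.861 and that of Mtx2 was 0.882. So the Hoxd cluster and Evx2 lay between an open promoter on either side.

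Beside Hoxb, the promoter of Ttll6, a tubulin-modifying enzyme of cilia, was open with heights of 0.715 and 0.788, and that of Skap1, a T cell adaptor, with 0.505 and 0.426, which came from different peaks of the promoter, each found in 1 replicate. Calcoco2, an autophagy receptor, was closed. Evx1, the even-skipped gene 52618 bp from Hoxa, was closed, as were Gm28308 and 5730596B20Rik inside that cluster.

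The remaining tall peaks of the flanks belonged to no coding promoter. Left of Hoxa they were site 2 at chr6:52064141-52064600, with heights of 0.978 and 1.07, and site 1, with 0.446 and 0.504. Right of Hoxa site 3, 7437 bp from Evx1 at chr6:52305941-52306180, had 1.19 and 1.08. Left of Hoxb site 4, in an intron of Ttll6 at chr11:96145701-96145900, had 1.17 and 1.27. Right of Hoxb sites 5 and 6 had mean heights of 0.752 and 0.548. Right of Hoxc site 9, in an intron of D930007P13Rik at chr15:103135401-103135640, had 1.66 and 1.32, and site 5 had 1.08 and 0.885. Low values were found left of Hoxc, where the only shared peak had 0.354 and 0.291, and right of Hoxd, where site 1 had 0.256 and 0.291 beside the taller peak of Mtx2.

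None of the 7 microRNA genes in the clusters had a peak within 1000 bp of its 5′ end, and the share over other microRNA genes was not computed. They are Mir196b in Hoxa, Mir196a-1 and Mir10a in Hoxb, Mir196a-2 and Mir615 in Hoxc, and Mir10b and Gm44463 in Hoxd. The closest was Mir615, with a peak 1090 bp away in replicate 1, and the farthest in that replicate was Mir196a-1, at 13697 bp. Among long noncoding RNAs, Hotair in Hoxc, which is known to act with Polycomb, lay 23131 bp from a peak in both replicates, and Hotairm1 at the front of Hoxa 37382 bp in replicate 1. Haglr in Hoxd had a peak of 0.341 in replicate 1 alone near its transcript start in the basic annotation, and the 5′ end of its gene model lay inside the Hoxd1 promoter peak of that replicate.

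A fixed list of 67 genes, called regulators below, held genes that act on Hox clusters, work with Hox proteins or lie beside the clusters. Of these, 58 were open in both replicates, 1 was open in the first replicate alone and 8 were closed. Over all genes 62.6% were open in both, and in CpG deciles 8 to 10, which hold many of these promoters, 95.2% to 97.2% were, so open promoters are not particular to the list. All 23 Polycomb genes were open, with the tallest peaks at Jarid2 (12.9 and 8.56), Cbx8 (12.1 and 8.08) and Pcgf1 (10.9 and 9.39). So were all 9 trithorax and demethylase genes, among them Kdm6a (9.88 and 6.7), Kmt2a (7.66 and 7.49) and Men1 (8.21 and 5.42), which act against Polycomb silencing.

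All 7 genes for CTCF and cohesin, which lie in CpG deciles 8 to 10, were open, with Stag1 (11.1 and 9.56), Smc3 (10.6 and 9.21) and Rad21 (7.67 and 6.39) the tallest. All 9 genes for TALE proteins, which bind DNA together with Hox proteins, were open, with heights of 11.6 and 8.57 at Pknox1 and of 6.08 and 3.86 at Pbx4. Both hindbrain segment genes were open, and Egr2 among them had heights of 3.61 and 2.94.

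Of 12 retinoic acid genes 8 were open in both replicates, near the 62.6% of all genes. The receptor genes Rxrb (9.24 and 5.7), Rarg (3.79 and 2.61) and Rarb (1.65 and 1.3) had the tallest peaks. The genes for the degrading enzymes, Cyp26a1, Cyp26b1 and Cyp26c1, were all closed, and Aldh1a3, a synthesis enzyme, was open in replicate 1 alone. Cdx1, Cdx2 and Cdx4, the embryonic activators of Hox clusters, were closed too, as were Evx1 and Evx2. These 8 are all the closed genes of the list.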

How the data were processed

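DNase-seq was measured in 2 samples of mouse hippocampus, taken as replicates 1 and 2 of 1 group from their labels. Per the labels, the authors deposited for each sample 2 peak lists, false discovery rates and footprints on mm10, called per sample, with the aligner and callers not given in the sources used here. The deposited peak height is a signal value whose scale is not stated. It is a whole multiple of 1 step (0.00656 and 0.00646), within 0.1 step for values under 200 steps, and the median peak had 98 and 99 steps. The number of reads was not analysed here. The deposited false discovery rate, a q-value type of measure, is listed where 0.05 or less, and the deposited footprint score is the constant p-value 0.01, which was not used. All peak ends lay inside the chromosomes of GRCm38, the same build as mm10.

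The longer peak list was used. From it were computed promoter overlap (1000 bp around coding starts of the GENCODE M21 basic set, 1 bp of overlap), density, mutual best overlaps between replicates and the exact binomial test, which was tested on simulated data. Footprints were matched to peaks, and motifs were searched in GRCm38. Tools were Python 3.11.15, numpy 2.4.6, scipy 1.17.1, pysam 0.24.0 and matplotlib 3.10.9. Genes and sites were named by fixed rules: Hox genes with a promoter peak in either replicate, other coding genes starting in the regions, the 3 tallest shared peaks per cluster and 2 per flank, every pair past the test, microRNA genes, and of the regulators the 3 tallest per group and all closed ones. Some genes under these rules are not reported here. The members, lists and rules were chosen with earlier results of these data known. The alternatives tried were other windows, start sites, peak lists, height limits, flanks, overlaps, scalings and thresholds, and each replicate left out.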

Additional observations from a re-analysis of the deposited data

How the results depend on the processing

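Of 44 alternative values of the 9 summary results, 30 stayed close to the reported value and 14 moved. Only the median log2 ratio of Hox pairs could be labelled as reversed, and it was not. Leaving out a replicate could not move densities, footprints or listed bases beyond the SD of n = 2, by construction. Whether clusters were denser than flanks was not among these results, and that direction depended on flank size. On the shorter peak list, the Hox genes open in both replicates fell from 3 to 1, the density from 4.98 to 2.85 peaks per 100 kb in the clusters and from 4.5 to 2.44 in the flanks, and footprints reached 14.5 per kb of peak. With peaks at or above the median height these were 1 gene, 2.24 and 1.62 peaks per 100 kb, and 91.8% of peaks were shared. Neither the share of all genes open under these 2 limits nor the share of autosomal peaks shared at that height was computed. A window of 5000 bp gave 19 genes. Clusters extended by 10 kb had 4.81 peaks per 100 kb, and flanks of 50 and 200 kb had 3.5 and 6.69. A false discovery rate of 0.001 left 0.736% of cluster bases. Without scaling, the median log2 ratio of Hox pairs was 0.00376. With each replicate left out in turn, the number of open Hox genes was 3 to 4, the cluster density 4.88 to 5.08, the flank density 4.12 to 4.88, footprints 10.7 to 12.9 per kb, listed bases 1.23% to 1.27% and open regulator genes 58 to 59.

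The number of Hox pairs called ranged from 6 to 9. On the shorter list it was 7 of 26 pairs, all higher in replicate 2, near the 27.8% called among all 63410 pairs of that list. Of 34 alternative values of the 9 called pairs, 4 lost the call and none reversed. The values without scaling among these carry no p-value, so they could not lose the call. The called pairs at site 2 left of Hoxd and site 2 left of Hoxb had no counterpart on the shorter list and were not counted there. With 1 group of 2 pools, no conditions were compared, and a p-value here says nothing of variation between animals. A missing peak means no peak above the authors' limit at the depth of these libraries.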

Other observations

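Short motifs of other factors were counted in the peaks inside the Hox clusters. The E-box CATCTG, which NEUROD proteins bind, was found in 4 of 25 and 5 of 24 cluster peaks, or 16% and 20.8%, against 26.8% and 25.7% of all peaks, in the 200 bp around each peak's middle and on both strands. The AP-1 site TGANTCA was found in 0 and 1 cluster peaks, against 9.36% and 8.94% of all peaks. The GC box GGGCGG was found in 6 and 5 cluster peaks, or 24% and 20.8%, against 14.2% and 15.1%. With so few peaks, none of these shares was tested.

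No cluster peak held the homeobox site TAATTA, the PBX-HOX site TGATTNAT, the CDX site TTTATGG, the CRE TGACGTCA or the retinoic acid DR5 element in either replicate. Over all peaks these were found in 3.87%, 2.42%, 1.72%, 0.649% and 0.0333% in replicate 1. The AP-1 and PBX-HOX patterns can match the same bases. The missing letters say nothing about the factors.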
